A study of Mus musculus with 80 samples.

Results

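Tyto and FACSAria are 2 instruments for fluorescence-activated cell sorting (FACS) of microglia, the resident macrophages of the brain. The MACSQuant Tyto moves cells through a closed microfluidic cartridge at low pressure and diverts those of interest with a valve, whereas the FACSAria is a cytometer that charges and deflects droplets. The comparison took the 18 libraries of these sorts, out of 48 libraries of the sort comparison and 80 in the series. They were chosen by the sort method given in the sample records, as Tyto sorting without a preceding magnetic step against FACSAria sorting. There were 5 Tyto-Input, 4 FACSAria-Input, 5 Tyto-TRAP, and 4 FACSAria-TRAP libraries. All genes in the deposited table were considered.

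Every mouse in both arms was Cx3cr1-NuTRAP, that is, *Cx3cr1*(Jung)-cre/Ert2+;NuTRAP+, with 1 copy of each allele. Tamoxifen (100 mg/kg, intraperitoneal, given on consecutive days at about 3 months) made the Cx3cr1-driven cre remove a stop cassette, so that ribosomes of *Cx3cr1*+ cells carry eGFP. Microglia are the main such cells of the brain, but border-associated macrophages also express *Cx3cr1*, so that the tag does not separate the 2 types. No mouse received transcription or translation inhibitors. Brains were dissociated with enzymes and mechanical force, and both instruments sorted cells positive for CD11b, CD45, and eGFP. Hemispheres were run in parallel on both instruments. Mice 69, 945, and 991 gave a library pair for each instrument, mice 822 and 823 were sorted on the Tyto only, and mouse 992 on the FACSAria only. In the library names, the Tyto hemispheres of mice 69, 945, and 991 carry the letter R and their FACSAria hemispheres the letter L. If the letters mark the side of the brain, side and instrument cannot be told apart within these mice. The Tyto arm had 4 male mice and 1 female, and the FACSAria arm had 2 of each. Input is RNA from the homogenate of the sorted cells before pull-down, and TRAP (translating ribosome affinity purification) is the RNA pulled down from the same homogenate with an antibody against GFP. The comparison asks whether the choice of sorter alters the transcriptome or the translatome of the sorted cells.

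As background, a sorted sample holds the cells that passed the gate together with whatever RNA and cell fragments travel in the same drops or valve openings. Input reports all polyadenylated RNA of that sample, whichever cell it came from. TRAP enriches RNA bound to tagged ribosomes, so that transcripts from cells without the tag are depleted by comparison. Myelin debris from oligodendrocytes is a well-known component of suspensions of adult brain, and preparation protocols include a step to remove it.

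Total expected counts per library were 11300738–16223660 (median 14024401) in Tyto-Input and 8738297–11367400 (median 10722966) in FACSAria-Input. They were 14788255–19737376 in Tyto-TRAP and 13528743–16710026 in FACSAria-TRAP. Values below are CPM, that is, counts scaled to a common library size with edgeR's trimmed mean of M-values, and log2 fold changes are Tyto over FACSAria, so that a positive value is higher after the Tyto. A gene was called at a false discovery rate (FDR) under 0.1 with a fold change above 2. CPM of different genes are not compared, since they are not scaled to gene length. Within a group, log2 CPM of any 2 libraries correlated across genes at r = 0.9795 or more, and no 2 libraries agreed within counting noise. Libraries did differ in what they carried beside microglial RNA. Tyto-Input of mouse 69 had the highest sum of myelin transcripts in its group, FACSAria-Input of mouse 991 had the highest sums of myelin and astrocyte transcripts in its group, and FACSAria-Input of mouse 69 had the highest sum of liver-expressed transcripts. The microglial label held in all 4 groups. *Tmem119*, a microglial membrane protein, was at 2900–3372 CPM in Tyto-Input and 3017–3467 CPM in FACSAria-Input. It was at 424–626 CPM in the Input of the unsorted cell suspension (n = 4, other mice). In TRAP it was at 2793–3501 CPM after the Tyto and 3012–3442 CPM after the FACSAria. These ranges overlapped with TRAP of the unsorted suspension, at 3039–3678 CPM (n = 4), so that sorting did not raise it there.

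Most of the transcriptome was measured closely enough to bound the difference between the instruments. The 95% confidence interval of the fold change lay wholly within 2-fold for 66.6% of 15076 genes in Input and for 69.3% of 14953 genes in TRAP. Among genes at 10 to 100 CPM these shares were 97.7% and 99.2%, and below 1 CPM they were 0.507% and 2.2%. In Input, 35 genes passed the test (0.232% of those tested), of which 30 were higher in Tyto (0.199%) and 5 lower (0.0332%). In TRAP, 14 genes passed (0.0936%), and all 14 were lower in Tyto (0.0936%). No gene passed in both fractions. Without the FDR, 1060 genes in Input and 1317 in TRAP had an unadjusted p under 0.05. When each mouse was entered as a block, with only the Tyto and FACSAria libraries in the fit and 2 residual degrees of freedom, 0 genes passed in Input (755 at an unadjusted p under 0.05) and 11 passed in TRAP, 1 higher and 10 lower. With the same 9 libraries per fraction and no block, 0 passed in Input and 46 in TRAP. Leaving out 1 library at a time changed the Input count to 0 without FACSAria mouse 69 or 992, to 3 without FACSAria mouse 945, to 6 without Tyto mouse 991, to 58 without Tyto mouse 945, and to 182 without FACSAria mouse 991. The TRAP count was 0 without Tyto mouse 822, 823, 945, or 991 or FACSAria mouse 945 or 992, 8 without Tyto mouse 69, and 11 or 13 without FACSAria mouse 69 or 991. Of the 209 Input genes (1.39%) in which every Tyto library was above every FACSAria library, and the 155 (1.03%) in the opposite order, most did not pass the test. In TRAP these orders were found for 130 (0.869%) and 254 (1.7%) genes.

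**Figure D1:**
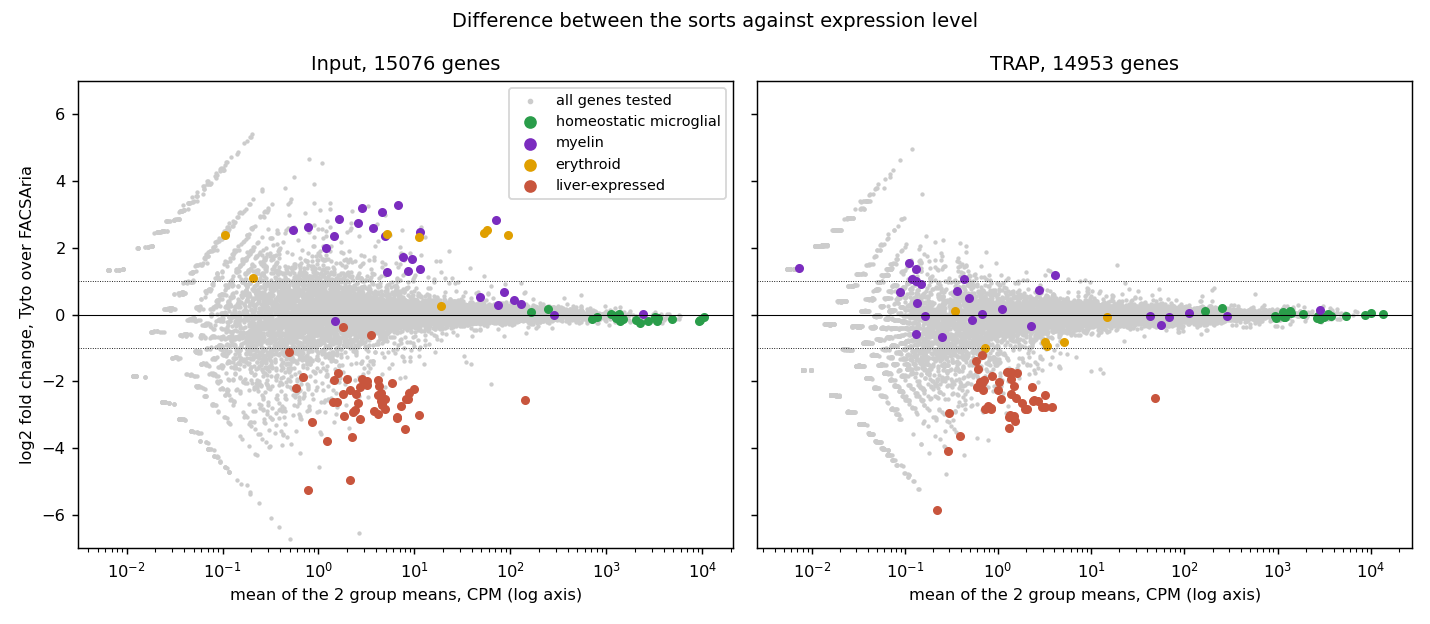
Log2 fold change (Tyto over FACSAria) of every gene tested, against the mean of the group means in CPM on a log axis, for Input (left, 15076 genes) and TRAP (right, 14953 genes). Grey points are all genes and colored points are members of 4 gene lists, and dotted lines mark 2-fold; liver-expressed genes lie below 0 in both panels, whereas erythroid genes and 24 of the 26 myelin genes lie above 0 in the Input panel, and on both sides of 0 in the TRAP panel.

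The genes called higher in Tyto-Input were mainly those of oligodendrocytes, the cells that make myelin. Of the 30, 23 are on the oligodendrocytic marker list used in the study and 2 are on its astrocytic list. *Cldn11* (chromosome 3, 31149920 to 31164326, mm10) encodes the claudin that seals the layers of myelin. Its level in Tyto-Input was 30.4, 8.001, 8.07, 5.60, and 10.0 CPM in mice 69, 822, 823, 945, and 991, compared with 0.500, 0.381, 3.09, and 0.878 CPM in FACSAria-Input of mice 69, 945, 991, and 992. The groups did not overlap, and in each of the 3 shared mice the hemisphere sorted on the Tyto was the higher. The log2 fold change was 3.29 ± 0.58 (SE; edgeR adjusted p = 0.0417). In bulk samples such as these, fewer cells of a type and less RNA per cell cannot be told apart. Both groups were far below the unsorted suspension, in which *Cldn11* was at 475–814 CPM (n = 4, other mice). In Input after magnetic sorting alone (autoMACS) it was at 0.898–2.27 CPM (n = 4). After autoMACS followed by the Tyto it was at 0–0.895 CPM (n = 3), so that the higher level was not found in every group sorted on the Tyto.

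For 2 other called genes the groups were likewise apart, and the values are given in the same order of mice. *Cntn2*, a contactin of the region beside the node of Ranvier, was at 17.8, 6.67, 7.27, 6.69, and 5.85 CPM in Tyto-Input compared with 0.500, 0.762, 2.06, and 1.00 CPM in FACSAria-Input (log2 fold change 2.99 ± 0.46, SE; edgeR adjusted p = 0.0199). *Tubb4a*, a beta-tubulin abundant in myelinating cells, was at 44.02, 13, 11.8, 10.7, and 21.2 CPM compared with 3.20, 2.00, 6.08, and 1.25 CPM (log2 fold change 2.63; edgeR adjusted p = 0.0296). For each of these genes FACSAria-Input of mouse 991 was the highest of its group and lay nearest to the Tyto libraries.

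Further called genes cover several steps of the oligodendrocyte program. The regulators *Sox10* and *Olig1*, transcription factors of the lineage, had log2 fold changes of 2.58 ± 0.52 and 2.21 ± 0.47 (SE). *Ugt8a*, which makes the myelin lipid galactosylceramide, was 9.22-fold higher in Tyto-Input. The membrane and adhesion genes were *Gpr37* (3.07), *Ermn* (2.60), *Tspan2* (2.34), *Omg* (3.15), *Edil3* (3.25), and *Aplp1* (1.90), each a log2 fold change past the FDR. *Hapln2*, a link protein of the matrix at nodes, was counted 132 times over the Tyto-Input libraries and 3 times over the FACSAria-Input libraries, a ratio per total of 26.1 (counting interval 8.74–128). Among the rest, *Slpi*, a protease inhibitor of leukocytes and epithelia, was counted 95 times compared with 2 (ratio 28.2, interval 7.59–236), and *Bfsp2*, a filament protein of the eye lens that is on the study's oligodendrocytic list, was counted 27 times compared with 0 (at least 5.34-fold higher, against 3 counts in the group).

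Over the 26 measured genes of the list "myelin and mature oligodendrocyte genes", the median log2 fold change in Input was 1.86, compared with 0.005 over all genes tested. Of the 26, 24 had a value above 0, 21 had an unadjusted p under 0.05, and 7 were called, all 7 higher (background 0.199%). In 10 of the 26 the groups did not overlap (background 1.39%). Some members with small differences in Input were also abundant in TRAP. *Mag*, an adhesion molecule of the innermost myelin layer, was at 74.1, 55.8, 42.9, 52.5, and 59.7 CPM in Tyto-Input compared with 37.02, 40.8, 37.04, and 44.9 CPM in FACSAria-Input. In TRAP it was at 37.9–43.9 CPM compared with 40.4–44.4 CPM, so that the ranges overlapped in both fractions. *Trf*, the iron carrier transferrin, was at 2219–2582 CPM in Tyto-Input and 2348–2524 CPM in FACSAria-Input. *Mbp*, myelin basic protein, was at 83.2–210 CPM compared with 82.5–208 CPM, with the highest FACSAria value in mouse 991 (log2 fold change 0.32, 95% confidence interval -0.29 to 0.93).

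The oligodendrocytic difference was not seen in TRAP at this depth. Of the same 26 genes, 0 were called in TRAP (background 0.0936%), 0 had an unadjusted p under 0.05, and the median log2 fold change was 0.258, compared with -0.019 over all genes. Levels were low: 16 of the 26 were below 1 CPM in both groups, compared with 1 of 26 in Input. *Tubb4a* was at 1.47, 0.638, 0.521, 0.693, and 0.326 CPM in Tyto-TRAP and 0.127, 0.267, 2.27, and 1.48 CPM in FACSAria-TRAP, and the ranges overlapped. The interval of its log2 fold change in TRAP was -1.69 to 0.61. *Cldn11* did not exceed 0.383 CPM in any of the 9 TRAP libraries. On the oligodendrocytic list of the study, 23 of 194 genes were called higher (background 0.199%) and 1 lower (background 0.0332%) in Input (median 0.822). In TRAP 0 of 191 were called (background 0.0936%, median -0.046), and 109 of the 191 were below 1 CPM in both groups.

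**Figure D2:**
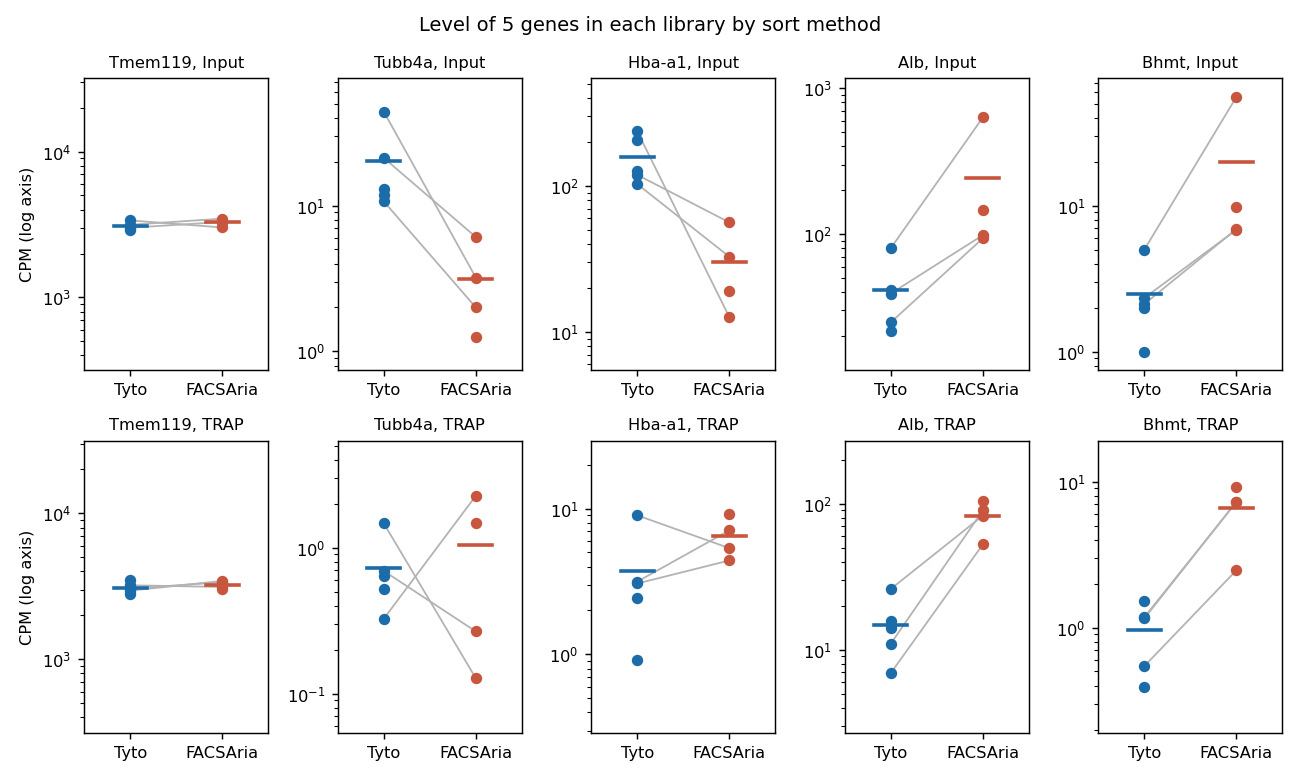
CPM of 5 genes (log axis) in each library of Input (top) and TRAP (bottom), Tyto in blue (5 mice) and FACSAria in red (4 mice), with group means as bars and grey lines joining the hemispheres of the 3 brains run on both instruments. *Tubb4a* and *Hba-a1* are higher in every Tyto library than in every FACSAria library of Input but overlap in TRAP, *Alb* and *Bhmt* are lower in every Tyto library of both fractions, and *Tmem119* overlaps throughout.

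Genes of the astrocyte and neuronal lists were also mostly above 0 in Input, and 0 were called. Among 19 astrocyte genes the median log2 fold change was 1.08, 18 were above 0, 7 had an unadjusted p under 0.05, and 0 were called. *Slc1a2*, the main glutamate transporter of astrocytes, was at 97.5, 48.1, 56.5, 20.2, and 53.96 CPM in Tyto-Input compared with 15.0, 12.8, 42.6, and 12.9 CPM in FACSAria-Input (log2 fold change 1.40; edgeR adjusted p = 0.221). The groups overlapped because of FACSAria mouse 991 and Tyto mouse 945. Without FACSAria-Input of mouse 991, 14 of the 19 astrocyte genes and 17 of the 26 myelin genes were called. In that fit 182 of all 15086 genes were called, 156 of them higher. The library left out was the one with the highest sums of both lists in its group. Without FACSAria-Input of mouse 69 or of mouse 992, 0 genes of any kind were called. In TRAP the astrocyte median was 0.016. Of 15 neuronal genes, 13 were above 0 in Input (median 0.477) and 15 were below 0 in TRAP (median -0.851), with 0 called in either fraction. In TRAP 12 of the 15 were below 1 CPM in both groups, and their sum was higher in the Tyto hemisphere of mice 69 and 945 and lower in that of 991. On the neuronal list of the study, 63 of 97 genes were above 0 in Input (median 0.277) and 72 of 97 below 0 in TRAP (median -0.671), with 0 called.

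The 5 genes called lower in Tyto-Input were *Fabp1*, *Bhmt*, *Itih2*, *Gstm2*, and *Tcea3*. *Fabp1* is the fatty acid binding protein of liver and intestine, *Bhmt* is the liver enzyme that methylates homocysteine from betaine, and *Itih2* is a heavy chain of a plasma inhibitor made in liver. *Bhmt* (chromosome 13, 93616891 to 93637758) was at 5.00, 1.00, 1.98, 2.33, and 2.12 CPM in Tyto-Input and at 55.7, 6.86, 6.92, and 9.79 CPM in FACSAria-Input. No FACSAria library was as low as any Tyto library, and the log2 fold change was -3.01 ± 0.65 (SE; edgeR adjusted p = 0.0841). *Fabp1* was at 0.182–0.467 CPM compared with 11.9, 2.19, 0.842, and 1.51 CPM, and was 12.7-fold higher in FACSAria-Input. *Gstm2*, a glutathione transferase, was at 0–0.265 CPM compared with 0.571–2.38 CPM (log2 fold change -3.15). *Tcea3*, a transcription elongation factor, was counted 3 times over the Tyto-Input libraries and 32 times over the FACSAria-Input libraries (18-fold by counts per total, interval 5.62–91.8).

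The genes called lower in Tyto-TRAP included further liver-expressed genes. *Alb*, *Apoa1*, *Apoa2*, *Ahsg*, *Ambp*, and *Pzp* encode albumin, the 2 main apolipoproteins of high-density lipoprotein, fetuin-A, a precursor of alpha-1-microglobulin, and an alpha-macroglobulin, which the liver secretes into plasma. *Alb* (chromosome 5, 90460889 to 90476603) was at 26.04, 15.7, 13.99, 10.98, and 6.90 CPM in Tyto-TRAP and at 82.9, 90.0, 52.6, and 104 CPM in FACSAria-TRAP. The groups were wholly apart, and each shared mouse had more *Alb* in the FACSAria hemisphere (log2 fold change -2.50 ± 0.52, SE; edgeR adjusted p = 0.0958). With the mouse as a block the value was -2.49 (edgeR adjusted p = 0.000187). In Input, *Alb* was at 80.2, 41.6, 21.6, 39.2, and 24.9 CPM compared with 632, 98.5, 93.8, and 147 CPM, likewise with no overlap, but it did not pass (log2 fold change -2.56 ± 0.70, SE; edgeR adjusted p = 0.224).

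*Cyp2e1*, the ethanol-oxidizing cytochrome P450 of liver, was at 0–0.578 CPM in Tyto-TRAP and 1.69–3.74 CPM in FACSAria-TRAP (log2 fold change -3.03 ± 0.60, SE). *Ambp* was at 0.130–0.255 CPM compared with 1.24–1.60 CPM, which is 7.14-fold higher in FACSAria-TRAP. *Pzp* and *Ahsg* were 9.09-fold and 6.88-fold higher. *Aass*, a lysine-degrading enzyme, was counted 2 times over the Tyto-TRAP libraries compared with 33, and *Aldh1a7*, an aldehyde dehydrogenase, 3 times compared with 49. The other 5 called genes are not typical of liver only. *Vtn* encodes vitronectin, which is made by liver and by brain pericytes, and was at 0.543–1.18 CPM compared with 3.06–10.8 CPM. *Col4a1* encodes basement membrane collagen and had a log2 fold change of -1.74 ± 0.37 (SE). *Prickle2*, a planar polarity protein, was at 0.255–0.462 CPM compared with 1.56–1.69 CPM. *Palmd* (-2.19) and *Plcb1* (-2.48) completed the list. All 14 had an edgeR adjusted p between 0.0958 and 0.0959, just inside the threshold.

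Because of these calls, a list of 50 liver-expressed plasma protein and metabolic genes was drawn up after the called genes had been seen, and it is described here without a test. Liver was not sampled, and the source of these reads, within or outside the sorted cells, was not tested. In Input all 50 had a log2 fold change below 0 (median -2.54) and 47 had an unadjusted p under 0.05. In TRAP 44 were measured, all 44 were below 0 (median -2.54), and 44 had an unadjusted p under 0.05. Every FACSAria library was above every Tyto library for 21 of 50 genes in Input (background 1.03%) and for 32 of 44 in TRAP (background 1.7%). A gene was measured if it passed the count filter in any group, FACSAria included. Members could thus enter through the group in which they were high. How many of the 50 or 44 did so was not counted, so that the filter may have set these counts in part. The list holds 3 of the Input calls and 8 of the TRAP calls, and since these calls prompted it, nothing is read from its counts against the background. Summed over the list, Tyto-Input libraries had 57.3–191 CPM and FACSAria-Input libraries 224–1442 CPM. Tyto-TRAP libraries had 18.3–56.6 CPM and FACSAria-TRAP libraries 115–236 CPM. In mice 69, 945, and 991 the FACSAria hemisphere had 7.56, 2.47, and 3.65 times the Tyto sum in Input and 3.38, 7.06, and 6.25 times in TRAP.

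The share of *Alb* in this list varied less than the sum. *Alb* made up 37.7–46% of the list in Tyto-Input, 41.9–44.1% in FACSAria-Input, 37.7–54.8% in Tyto-TRAP, and 43.4–48% in FACSAria-TRAP. These transcripts were also found in other groups. *Alb* was at 3.24–8.95 CPM in the Input of the unsorted suspension, at 14.2–130 CPM after autoMACS alone, and at 94.3–534 CPM after autoMACS followed by the Tyto (3 or 4 mice per group). The difference between the instruments in Input leaned on mouse 69. Without FACSAria-Input of that mouse, the median over the liver-expressed plasma protein and metabolic genes was -1.49, 25 of 50 had an unadjusted p under 0.05, and 0 were called. In TRAP, leaving out FACSAria mouse 69 left the median at -2.52 with 0 called. The 2 FACSAria mice that are female, 69 and 992, had the highest sums of their group in both fractions. With sex as a term in the fit, the median of the list was -1.996 in Input and -2.37 in TRAP. In that fit *Alb* in TRAP had a log2 fold change of -2.40 (edgeR adjusted p = 0.142), and 0 of the 14 genes called in TRAP remained called.

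**Figure D3:**
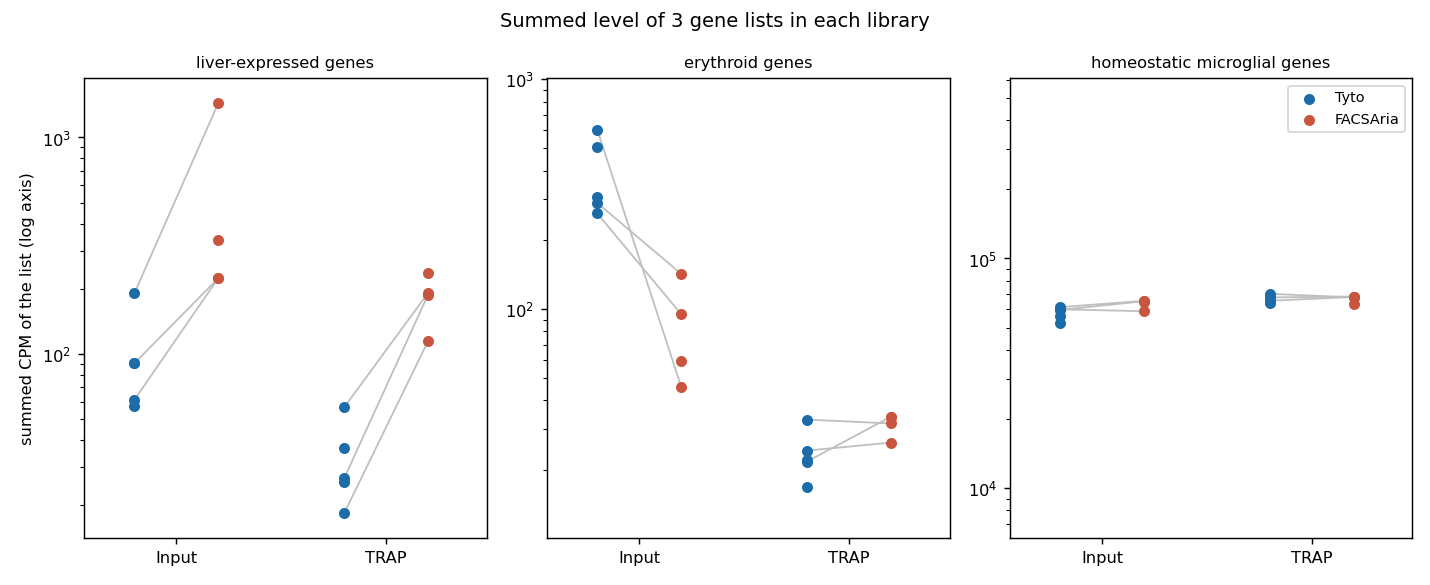
Summed CPM (log axis) of liver-expressed genes (50 in Input, 44 in TRAP), erythroid genes (8 and 6), and homeostatic microglial genes (20 in both) in each library, Tyto in blue and FACSAria in red, with grey lines joining hemispheres of 1 brain. Liver-expressed sums are lower in every Tyto library of both fractions, erythroid sums are higher in every Tyto library of Input but not of TRAP, and homeostatic microglial sums overlap.

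Red blood cell transcripts were at higher levels in Tyto-Input, opposite to the liver-expressed genes. *Hba-a1* (chromosome 11, 32283672 to 32284486), an alpha-globin gene, was at 237, 207, 127, 103, and 119 CPM in Tyto-Input compared with 12.6, 32.8, 56.3, and 18.9 CPM in FACSAria-Input, with no overlap. Its log2 fold change of 2.39 ± 0.84 (SE) did not pass (edgeR adjusted p = 0.441). In the Input of the unsorted suspension *Hba-a1* was at 1906–2983 CPM (n = 4, other mice). After autoMACS followed by the Tyto it was at 6.8, 11.2, and 669 CPM (n = 3), so that the higher level was not found in every library sorted on the Tyto. All 8 erythroid genes had values above 0 (median 2.39), the groups did not overlap for 5 of the 8 (background 1.39%), and 0 were called. Summed CPM of the list were 261–604 in Tyto-Input and 45.9–142 in FACSAria-Input. The alpha-globin genes *Hba-a1* and *Hba-a2* and the beta-globin genes *Hbb-b1* and *Beta-s* (*Hbb-bs*) are near-identical pairs, so that reads could be split within each pair and the members are not independent. In TRAP, *Hba-a1* was at 8.98, 2.43, 0.911, 3.06, and 3.15 CPM compared with 5.35, 4.40, 7.08, and 9.20 CPM, and 5 of 6 measured erythroid genes were below 0 (median -0.833).

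Neutrophil transcripts showed the same direction in Input with much variation between mice. *S100a8*, a subunit of calprotectin, was at 21.1, 19.4, 10.4, 8.24, and 5.01 CPM in Tyto-Input and at 0.300, 6.86, 0, and 1.51 CPM in FACSAria-Input. The ranges overlapped, since FACSAria-Input of mouse 945 exceeded Tyto-Input of mouse 991 (log2 fold change 2.53 ± 0.71, SE; edgeR adjusted p = 0.236). All 10 neutrophil genes were above 0 (median 1.46), 4 had an unadjusted p under 0.05, and 0 were called.

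Whether the sort difference itself depended on the fraction was tested as an interaction over all 18 libraries, with a term for each sorted sample. Of 12304 genes, 13 passed (0.106%), and for all 13 the Tyto over FACSAria difference was lower in TRAP than in Input. The strongest were the globins. For *Hba-a1* the log2 difference in TRAP minus that in Input was -3.31 ± 0.37 (SE; edgeR adjusted p = 2.39e-05), and for *Beta-s* it was -3.29 ± 0.35 (SE). The oligodendrocytic genes *Tubb4a* (-2.95), *Aplp1* (-1.85), and *Septin4* (-1.99) passed as well. So did the glial genes *Clu* (-2.19) and *Ptn* (-2.57), which encode the chaperone clusterin and the growth factor pleiotrophin. *Clu* differed little between the sorts in Input (log2 fold change 0.47) and was below 0 in TRAP (-1.50). The neuronal genes *Nrsn1* (-5.31) and *Zfp365* (-4.44) were near 0 CPM in Tyto-TRAP. No liver-expressed gene of the list was among the 13. Without the term for the sorted sample 0 genes passed, and 505 had an unadjusted p under 0.05.

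The microglial transcripts were measured closely, and differences of 2-fold lay outside their intervals. *P2ry12*, the ADP receptor that guides microglial processes, was at 3141, 3024, 2519, 3655, and 3486 CPM in Tyto-Input and at 3754, 3957, 3456, and 3429 CPM in FACSAria-Input, with overlapping ranges. Its log2 fold change was -0.20 in Input (95% confidence interval -0.57 to 0.17) and 0.00 in TRAP (-0.14 to 0.15). For *Siglech*, a sialic acid-binding lectin, the values were -0.03 (-0.26 to 0.20) and 0.11 (0.00 to 0.23). The interval lay within 2-fold for all 20 homeostatic microglial genes in both fractions, and for 275 (Input) and 274 (TRAP) of the 282 genes of the study's microglial marker list, with medians of -0.021 and 0.020. Transcripts of the proteins used for gating also had intervals within 2-fold. In Input the log2 fold changes were -0.11 for *Itgam* (CD11b), -0.01 for *Ptprc* (CD45), and -0.10 for *Cx3cr1*, whose promoter drives the cre.

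Border-associated macrophages share the gate with microglia. All 12 genes of that list had values above 0 in both fractions (median 0.460 in Input and 0.562 in TRAP), 7 had an unadjusted p under 0.05 in TRAP, and 0 were called in either. *Mrc1*, the mannose receptor, was at 887, 924, 495, 700, and 472 CPM in Tyto-TRAP and at 375, 372, 580, and 478 CPM in FACSAria-TRAP. The ranges overlapped, and of the shared mice 69 and 945 were higher in the Tyto hemisphere and 991 in the FACSAria hemisphere (log2 fold change 0.62 ± 0.27, SE; edgeR adjusted p = 0.503). The intervals in TRAP were -0.09 to 1.18 for *Cd163*, a scavenger receptor of hemoglobin, and -0.25 to 1.07 for *Lyve1*, a hyaluronan receptor, and both reach beyond 2-fold.

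Genes of the early activation response were close in both sorts. *Fos*, an AP-1 subunit, was at 3029–3982 CPM in Tyto-Input and 3083–5563 CPM in FACSAria-Input, and the highest of all 9 values was FACSAria mouse 992. Its log2 fold change was -0.24 (95% confidence interval -0.54 to 0.06) in Input and -0.15 (-0.44 to 0.14) in TRAP. Of 29 immediate-early and AP-1 genes, 26 in Input and 28 in TRAP had values below 0 (medians -0.145 and -0.180), but 0 had an unadjusted p under 0.05 in either fraction. The sum of this list was highest in FACSAria mouse 992 in both fractions (53650 and 50060 CPM). In mice 69, 945, and 991 the Tyto hemisphere had 0.753, 1.152, and 1.045 times the FACSAria sum in Input. In TRAP it had 0.804, 1.207, and 1.002 times that sum. Intervals were within 2-fold for 23 and 22 of the 29, among them *Jun*, *Egr1*, and the mRNA-decay factor *Zfp36*. The inflammatory genes *Tnf*, *Il1b*, and *Ccl3* had log2 fold changes of -0.15, 0.04, and 0.09 in Input, each with an interval within 2-fold. Over the 27 genes of the list "NF-kB targets, cytokines and chemokines", intervals were within 2-fold for 19 in Input and 20 in TRAP, 18 had values below 0 in each fraction (medians -0.148 and -0.091), and 0 were called. *Hspa1a*, the inducible heat shock protein, could not be bounded so closely, since it was at 27.6–240 CPM in Tyto-Input and 51.9–138 CPM in FACSAria-Input (interval -1.05 to 1.37).

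**Figure D4:**
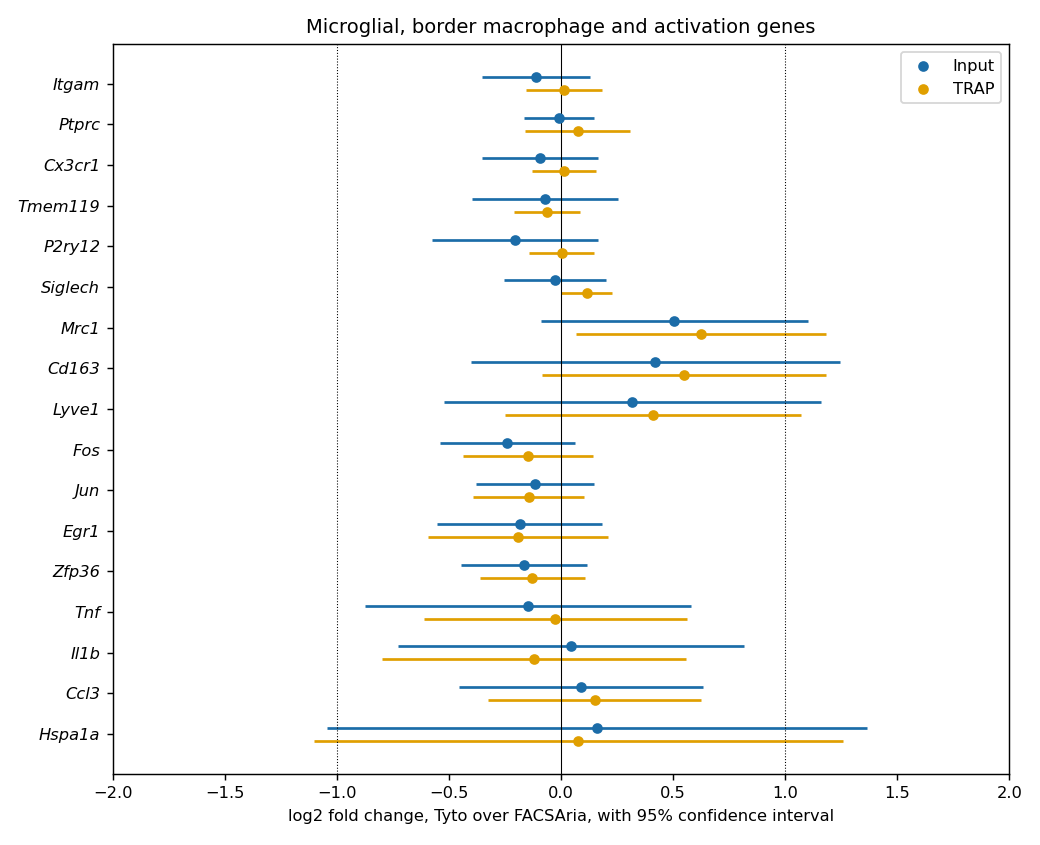
Log2 fold change (Tyto over FACSAria) with its 95% confidence interval for microglial, border macrophage, and activation genes, in Input (blue) and TRAP (orange), with dotted lines at 2-fold. The intervals of the microglial and immediate-early genes lie within the dotted lines, whereas those of *Mrc1*, *Cd163*, *Lyve1*, and *Hspa1a* reach beyond them in Input and TRAP.

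Small values of 1 sign were shared by most genes of protein synthesis and of the antiviral response. Of 82 cytosolic ribosomal protein genes, 81 had values above 0 in Input (median 0.170) and 69 in TRAP (median 0.068), all with intervals within 2-fold, and 0 were called. Of 19 type I interferon response genes, 18 in Input and 17 in TRAP were above 0 (medians 0.197 and 0.212), and 0 were called. The summed CPM of these interferon genes overlapped in Input, at 435–642 after the Tyto and 409–540 after the FACSAria. The Tyto sum was the higher in mice 69 and 991 and the lower in mouse 945, in both fractions. Vascular genes leaned the other way. Of 15 endothelial genes, 13 in Input and 11 in TRAP were below 0 (medians -0.599 and -0.538). Their summed CPM overlapped, at 596–780 in Tyto-Input and 617–983 in FACSAria-Input, and at 607–697 and 600–745 in TRAP. The Tyto sum was the higher in mouse 69 and the lower in mice 945 and 991, in both fractions. Of 11 genes of pericytes and smooth muscle, 10 in both fractions were below 0 (medians -0.683 and -1.09), with 1 of them, *Vtn*, called in TRAP. In TRAP 8 of these 11 were below 1 CPM in both groups. On the longer endothelial marker list of the study, 183 of 235 genes in Input and 174 of 233 in TRAP were below 0 (medians -0.229 and -0.347), with 0 called in Input. In TRAP, 57 of these had an unadjusted p under 0.05 and were lower in Tyto, compared with 1 higher, and *Vtn*, *Col4a1*, and *Palmd* were called lower (background 0.0936%). All 14953 genes tested in TRAP leaned the same way, with 921 lower and 396 higher at that p, and 8223 below 0 compared with 6424 above. Of 12 ependymal and choroid plexus genes, 7 in Input were below 0 (median -0.682), 6 of them at an unadjusted p under 0.05, and 0 were called. The summed CPM of this list was 625 in FACSAria-Input of mouse 991, compared with 123–303 in Tyto-Input. In FACSAria-Input of mice 69, 945, and 992 it was 41.2, 15.9, and 18.7, below every Tyto-Input library. The lean below 0 was thus not shared by these mice. In TRAP 6 of 10 were below 0 (median -0.034).

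**Figure D5:**
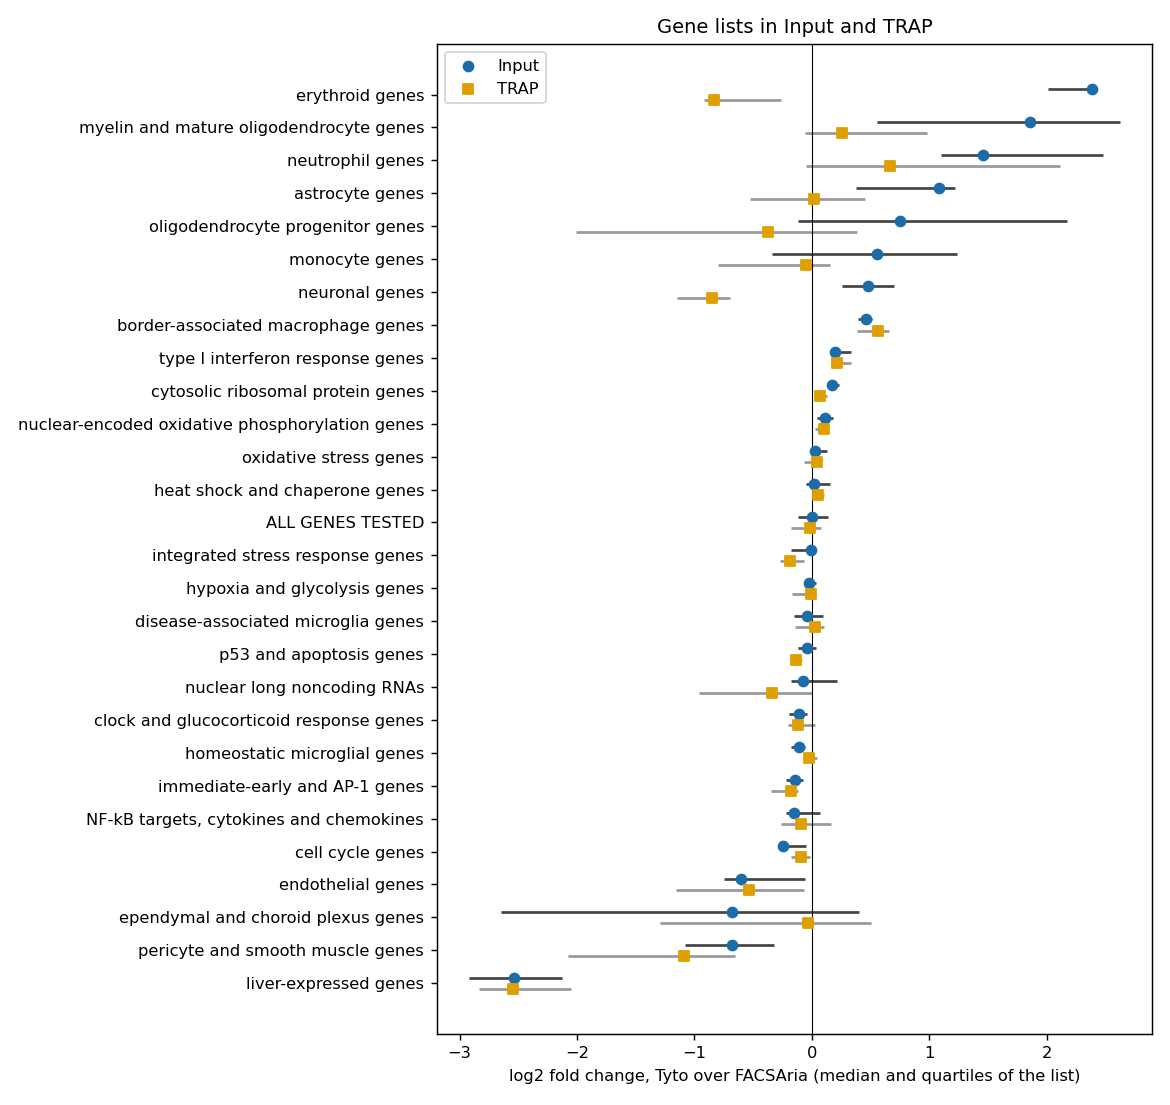
Median log2 fold change (Tyto over FACSAria) of each gene list in Input (blue circles) and TRAP (orange squares), with lines from the first to the third quartile and lists ordered by their Input median. Erythroid and myelin lists have the highest Input medians (2.39 and 1.86), liver-expressed genes have the lowest in both fractions (-2.54), and all genes tested have medians of 0.005 and -0.019. The liver-expressed list was drawn up after the called genes had been seen, so that nothing is read from its place among the lists.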

How the data were processed

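Sequencing libraries were stranded and poly(A)-selected. The authors trimmed the reads, aligned them to mm10 in Strand NGS, removed duplicates, and deposited expected counts per gene, with log2 values (DESeq2-normalized and baselined to Tissue-Input) beside them. The table lists 15919 genes, of which 23 symbols turned into dates were restored. Duplicate removal without molecular identifiers caps the most abundant transcripts. Coordinates are those of the table.

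Groups and mouse numbers came from the sample records, and sex from the study's supplement. Expected counts were rounded to whole numbers and tested with edgeR 4.0.16 (TMM, glmQLFit, glmQLFTest; R 4.3.3) in all 20 Input libraries other than Tissue-Input, or all 24 TRAP libraries, with group as the only term. Tested genes exceeded 5 counts throughout 1 or more groups. Called means Benjamini-Hochberg FDR under 0.1 and above 2-fold. All 35 genes called in Input, and 13 of 14 in TRAP, passed the filter through another group too. The exception in TRAP was *Ambp*. This share was not counted for the gene lists. Scripts were tested on simulated data. Counting intervals (95%) cover counting error only, as do ratios of summed counts.

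Named genes were the called genes of at least 1 CPM in their higher group (up to the 15 of largest fold per direction), fixed markers, called members of the gene lists, and the 5 lowest p of the interaction. *Trf*, *Tcea3*, *Aldh1a7*, *Aass*, *S100a8*, the liver-expressed examples, and, among the 13 interaction genes, *Ptn*, *Zfp365*, *Nrsn1*, and *Septin4* were chosen after their values were seen. The members and lists were chosen with earlier results of these data known. The genes that share a near-identical copy (globins, *Serpina1*) are uncertain. Some named genes are not reported here.

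The mice with both sorts are the same animals, which makes same-numbered libraries pairs. Deviations from the group means correlated at 0.033–0.230 (mean 0.145) within these mice in Input and 0.066–0.199 (mean 0.148) in TRAP, and at a mean of -0.025 between other mice in either fraction. Alternatives used DESeq2 1.42.0, limma 3.58.1 on the deposited log2 values, other normalization, filters, libraries, a mouse block, sex, and leaving out 1 library at a time.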

Additional observations from a re-analysis of the deposited data

Results flagged for a closer look

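Among 230 combinations of named gene and group, 42 held 1 library far from the others of its group. The rule gives about 1 in 20 by chance for normally distributed values. CPM of few reads need not follow that distribution, so that this rate is not a firm baseline here. Many of the 42 shared a library, and the genes of a library are not independent.

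Tyto-Input of mouse 69 stood highest for 13 oligodendrocytic or neural genes, with 78.2 CPM for *Aplp1*, 30.4 for *Cldn11*, 19.8 for *Tspan2*, 19.3 for *Gpr37*, 17.8 for *Cntn2*, 14.1 for *Edil3*, 12.8 for *Ermn*, 12.6 for *Ugt8a*, 10.9 for *Mog*, 8.91 for *Sox10*, 5.37 for *Omg*, 4.46 for *Plcb1*, and 4.18 for *Prickle2*. In the same library *Apoa1* was at 4.00 CPM and *Apoa2* at 5.28 CPM. In Tyto-TRAP of mouse 69 *Hba-a1* was at 8.98 CPM and *Hba-a2* at 0.736 CPM.

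FACSAria-Input of mouse 69 stood highest for liver-expressed genes, with 632 CPM for *Alb*, 55.7 for *Bhmt*, 39.5 for *Apoa2*, 32.4 for *Apoa1*, 15.5 for *Cyp2e1*, 11.9 for *Fabp1*, and 9.01 for *Itih2*. The Input sum of the liver-expressed list was 1442 CPM in this hemisphere and 191 CPM in the Tyto hemisphere of the same mouse, the highest of the Tyto group.

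FACSAria-Input of mouse 991 stood highest for genes of oligodendrocytes and astrocytes, with 208 CPM for *Mbp*, 55.7 for *Clu*, 42.6 for *Slc1a2*, 19.4 for *Aplp1*, 8.23 for *Aqp4*, 3.37 for *Olig1*, 2.81 for *Ermn*, and 1.50 for *Mog*.

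The remaining libraries were single values. *Ccl3*, a chemokine, was at 553 CPM in FACSAria-Input and 464 CPM in FACSAria-TRAP of mouse 992. In FACSAria-TRAP of mouse 992, *Vtn* was at 10.8 CPM, *Fabp1* at 1.56 CPM, and *Hapln2* at 0.156 CPM. In FACSAria-TRAP of mouse 991, *Ahsg* was lowest at 2.08 CPM and *Gpr37* highest at 0.260 CPM. *Mog* was at 0.446 CPM in FACSAria-TRAP of mouse 69, *Slpi* at 0.190 CPM in FACSAria-Input of mouse 945, and *Bfsp2* at 0.116 CPM in Tyto-TRAP of mouse 945, and each of these rests on few reads.

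For 13 genes the sort difference itself differed between fractions in the interaction test of edgeR. For those named here, the log2 difference in TRAP minus that in Input was -3.29 for *Beta-s*, -3.56 for *Hbb-b1*, -3.31 for *Hba-a1*, -3.30 for *Hba-a2*, -2.19 for *Clu*, -1.85 for *Aplp1*, -2.57 for *Ptn*, -2.95 for *Tubb4a*, -5.31 for *Nrsn1*, -4.44 for *Zfp365*, and -1.99 for *Septin4*.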

How the results depend on the processing

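The called counts were fragile in both fractions. In Input, 0 genes were called with only the Tyto and FACSAria libraries in the fit, with only the 4 sorted groups, with the mouse as replicate block, in the 3 shared mice alone, and with at least 10 counts in every library (8 of the 35 genes tested), while the DESeq2 Wald test called 110 genes, 73 higher and 37 lower, which included the 35. Leaving out 1 library gave 0 to 182 calls in Input. In TRAP, 46 genes were called with the Tyto and FACSAria libraries alone (1 higher), 136 by DESeq2 (10 higher), 27 by limma, and 0 with the 4 sorted groups, DESeq2 size factors in edgeR, no low-count filter, 10 counts in every library, the 3 shared mice, or sex as a term. Leaving out 1 library gave 0 to 13 calls in TRAP. For the difference between fractions, 91 genes were called with no low-count filter, 7 with 10 counts in every library, and 0 with no replicate block, and leaving out 1 mouse gave 7 to 28. With the mouse as replicate block 11 genes were called in TRAP, of which 4 were among the 14. The block ended 37 calls of named genes and added *Bhmt* in TRAP (edgeR adjusted p = 0.011). The cause of these changes was not tested. No named gene or list that was called changed sign under any alternative. Over 19 alternatives the median of the list "myelin and mature oligodendrocyte genes" in Input was 0.508 to 2.60, that of the "erythroid genes" 2.09 to 2.78, and that of the "liver-expressed plasma protein and metabolic genes" -2.98 to -1.49 in Input and -2.74 to -2.12 in TRAP. The medians of the "immediate-early and AP-1 genes" crossed 0 (-0.263 to 0.024 in Input, -0.315 to 0.062 in TRAP). That of the "endothelial genes" in Input also crossed 0 (-0.994 to 0.072). So did those of the "NF-kB targets, cytokines and chemokines" (-0.308 to 0.126 in Input, -0.22 to 0.228 in TRAP). In TRAP the medians of the myelin (-0.052 to 0.63), astrocyte (-0.347 to 0.239), neutrophil (-0.047 to 1.792), and homeostatic microglial (-0.06 to 0.003) lists crossed 0 as well. Alternatives for the liver-expressed list were added after seeing the data. Few genes below 1 CPM could be bounded within 2-fold at this depth.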
